A study of Mus musculus with 8 samples.

Results

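Interferons are secreted proteins that switch on a large group of defence genes in the cells that receive them. Type I interferons act through their receptor, JAK1 and TYK2 to assemble a complex with STAT2 and IRF9, which binds the interferon-stimulated response element (ISRE). Interferon-gamma acts through JAK1 and JAK2 on genes with a gamma-activated site (GAS), and it is the classical inducer of the immunity-related GTPases (IRG) and guanylate-binding proteins (GBP) that attack the vacuoles of intracellular microbes.

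The genes described here are 43 interferon-induced genes, all of them found among the 20926 genes of the table. They were chosen by name, with the values of these libraries already known, so every group difference among them is a description without a test. By known role, 14 of them are interferon-gamma GTPases (6 IRG and 8 GBP), 27 are mainly type I induced genes, and 2 (Irf1 and Cxcl10) respond to both interferons. Expression was measured by RNA-seq in tissue described as mesenchyme of molars, dissected at postnatal day 3. There were 4 libraries from Ezh2fl/fl mice (control) and 4 from Osr2KI-Cre;Ezh2fl/fl mice. Both groups carry the floxed Ezh2 alleles, and the control label has no Cre allele, so a Cre effect and the loss of Ezh2 cannot be told apart. The Cre is expressed from the Osr2 locus, whose activity in the molar is mesenchymal. The labels give the strain as C57BL/6, the methods describe a mixed background, and neither says how many mice went into a library, so genetic, animal and technical spread between libraries cannot be told apart. In this bulk tissue, fewer cells of a type and less RNA per cell cannot be told apart.

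Values are the normalized values of the deposited table, which have no gene-length factor, and they are listed in the order of library numbers 1 to 4. Estimated depth was 48.3 to 68.8 M reads per library, and 1 read was worth a value of 0.0129 to 0.019. Ezh2, the targeted gene, was 55.0, 38.3, 39.6 and 39.0 in the control libraries and 35.2, 30.1, 23.2 and 36 in the Osr2KI-Cre;Ezh2fl/fl libraries, lower in all 4, although a value for the whole gene also counts reads outside the floxed part. The tissue was not mesenchyme alone, since the dental epithelium markers Krt5 (827 to 1990) and Krt14 (329 to 938) were present in every library. The paper expected Ezh2 to persist in the epithelium, and its part in the Ezh2 values was not tested. Transcripts of both sexes, Xist and Ddx3y, were present in control libraries 1, 3 and 4 and in Osr2KI-Cre;Ezh2fl/fl library 4. The 8 dental mesenchyme markers, among them Msx1, Pax9 and Barx1, were present in every library, with 0 of 8 called by limma. At an unadjusted p under 0.05 limma gave 3 as higher and 1 as lower. The higher ones were Msx1, Twist1 and Prrx1 (log2 fold changes 0.27, 0.32 and 0.50) and the lower one was Dspp (-1.13). Over all genes, 1.56% were called higher and 0.512% lower, and 8.27% and 4.87% at the unadjusted threshold.

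Promoter sequence was available for 31 of the 43 genes in the RefSeq table (GRCm38.p6, 250 bases before to 50 after each annotated start). No entry was used for Iigp1, Gbp4, Gbp6, Gbp9, Gbp10, Usp18, Mx1, Mx2, Oas2, Ifi27, Rtp4 and Dhx58. The ISRE core was searched as GAAANNGAAA and the GAS core as TTCNNNGAA, on both strands. In 4 IRG genes of chromosome 11, a GAS core was followed after 2 bases by an ISRE core, and these joined sites are shown because they hold the letters of both interferon responses side by side, with both cores in capitals.
Tgtp1: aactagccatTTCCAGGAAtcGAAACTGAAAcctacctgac
Tgtp2: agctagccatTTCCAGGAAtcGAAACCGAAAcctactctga
Igtp: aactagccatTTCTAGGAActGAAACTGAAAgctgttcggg
Irgm2: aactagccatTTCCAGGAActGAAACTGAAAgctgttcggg

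These stretches lie at chr11:48992304-48992344 for Tgtp1 and chr11:49064263-49064303 for Tgtp2, both on the minus strand, and at chr11:58199501-58199541 for Igtp and chr11:58214892-58214932 for Irgm2, both on the plus strand (GRCm38). The GAS core began 88, 81, 45 and 75 bases before the RefSeq start of Tgtp1, Tgtp2, Igtp and Irgm2. The joined pattern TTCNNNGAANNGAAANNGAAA was looked for after these windows had been read. It was found in 5 of 32851 windows, or 0.0152%, and the fifth belonged to Gm12185. That site, at chr11:48927238-48927278 on the minus strand, is separate from the Tgtp1 site and lies outside Tgtp1. The GENCODE model of Gm12185 overlaps Tgtp1 on the same strand.

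The whole stretch before the start is shown for Tgtp2, which had the largest log2 fold change among the genes fitted, and for Isg15, a type I induced gene whose ISRE cores overlap one another. Capitals again mark ISRE and GAS cores.
Tgtp2: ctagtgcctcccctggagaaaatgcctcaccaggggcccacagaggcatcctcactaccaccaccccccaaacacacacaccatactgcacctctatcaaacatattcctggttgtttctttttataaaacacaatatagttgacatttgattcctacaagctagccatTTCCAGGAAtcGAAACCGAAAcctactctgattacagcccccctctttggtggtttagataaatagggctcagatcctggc
Isg15: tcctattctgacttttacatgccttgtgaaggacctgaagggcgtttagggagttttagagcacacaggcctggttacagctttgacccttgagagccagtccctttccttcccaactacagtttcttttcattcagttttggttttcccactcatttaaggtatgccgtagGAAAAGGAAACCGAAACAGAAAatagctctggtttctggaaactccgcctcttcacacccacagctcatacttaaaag

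The Tgtp2 stretch is chr11:49064213-49064462 and the Isg15 stretch is chr4:156200819-156201068, both on the minus strand of GRCm38. The stretches of 250 bases before the starts of Tgtp1 and Tgtp2 were 61.5% identical over 265 aligned columns. Isg15 held ISRE cores that began 78, 72 and 66 bases before its start and no GAS core in this window.

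In Irgm1 and the GBP genes with a window, no GAS core directly joined the ISRE core, although Gbp5 and Gbp7 held GAS cores elsewhere in the window. Sites of Irgm1, of 3 GBP genes and of 2 type I induced genes are shown with 1 ISRE core in capitals, to set GTPase sites beside type I ones. Among the type I induced genes, Bst2 and Ifitm3 held a GAS core that overlapped an ISRE core. That of Bst2 began 136 bases before its start, and the Bst2 stretch shown opens inside it.
Irgm1: tcaagaaataGAAACCGAAActgattctca
Gbp2: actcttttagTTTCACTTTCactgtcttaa
Gbp3: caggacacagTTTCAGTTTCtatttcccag
Gbp7: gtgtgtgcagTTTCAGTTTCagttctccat
Ifit1: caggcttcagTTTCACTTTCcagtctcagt
Bst2: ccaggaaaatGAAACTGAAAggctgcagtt

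The cores of Gbp2, Gbp3, Gbp7 and Ifit1 read on the opposite strand to the gene (TTTCNNTTTC). These sites began 24 bases before the start in Irgm1, 59 in Gbp2, 45 in Gbp3, 53 in Gbp7, 104 in Ifit1 and 124 in Bst2.

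An ISRE core was present in 20 of the 31 genes with a window (64.5%), against 3.99% of all 27025 genes with a window. Counted by window, the shares were 54.1% of 37 and 3.44% of 32851. All 9 GTPases with a window held one (5 IRG and 4 GBP), as did 10 of 20 type I induced genes. A GAS core was present in 12 of the 31 genes (38.7%), against 9.55% of all genes, and by window in 32.4% against 8.3%. It was found in 6 of 9 GTPases (66.7%) and in 5 of 20 type I induced genes (25%). Irf1, a transcription factor, held a GAS core that began 90 bases before its start, and Cxcl10, a chemokine, held an ISRE core at 213 bases. A match of letters is a description of these windows and does not show that a factor bound there.

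**Figure D1:**
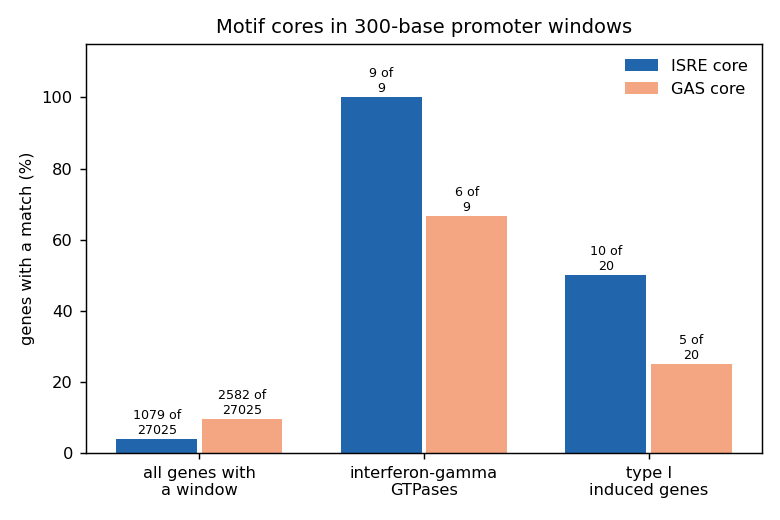
Share of genes (%) with an ISRE core or a GAS core in the promoter window, for all 27025 genes with a window, the 9 interferon-gamma GTPases and the 20 type I induced genes that had one. The ISRE core was in 9 of 9 GTPases and 10 of 20 type I induced genes, and the GAS core in 6 of 9 and 5 of 20.

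Most of the 43 genes were high in Osr2KI-Cre;Ezh2fl/fl libraries 1 and 3 and stayed within or under the control values in library 2. In library 1, 37 of 43 genes lay above every control library (32.2% of all genes in the table did), and in library 3 again 37 of 43 (35.6% of all genes). In library 2 the count was 8 of 43 (29.1% of all genes) and in library 4 it was 18 of 43 (26.1%). Below every control library were 0 genes in library 1 (23.5% of all genes), 17 in library 2 (27.5%), 1 in library 3 (24.9%) and 8 in library 4 (20.8%). Libraries 1 and 3 were the highest pair of the 4 Osr2KI-Cre;Ezh2fl/fl libraries in 35 of the 43 genes (81.4%), against 28.2% of all genes. Since the genes were selected on these libraries, nothing is read from the distance of these counts to the shares over all genes.

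**Figure D2:**
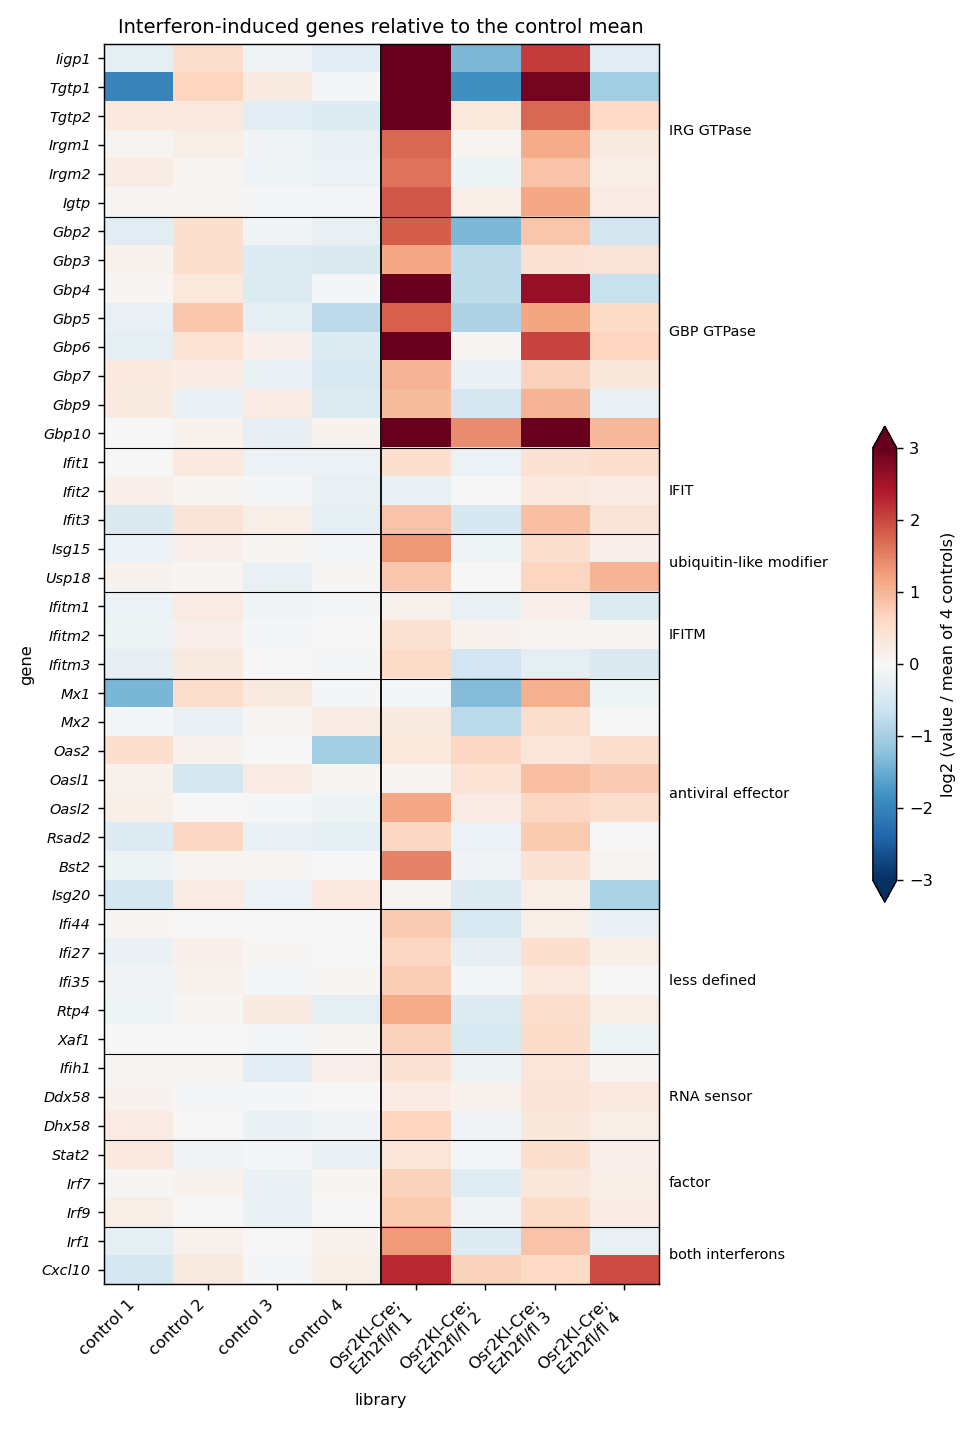
Heat map of the 43 genes (rows, grouped by role) in the 8 libraries (columns), coloured by log2 of the value over the mean of the 4 control libraries, with colours saturating at 3. The columns of Osr2KI-Cre;Ezh2fl/fl libraries 1 and 3 are red for most rows and darkest for the IRG and GBP genes, while library 2 is pale or blue in most rows. Gbp10 had 0 or 1 estimated reads in every control library, so its ratios cannot be read.

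The pattern was steepest among the GTPases. Relative to the control mean, the median GTPase stood at 3.59-fold in Osr2KI-Cre;Ezh2fl/fl library 1, 0.787-fold in library 2, 2.25-fold in library 3 and 1.2-fold in library 4. The median type I induced gene stood at 1.54, 0.899, 1.36 and 1.11-fold in the same libraries. All 14 GTPases lay above every control in library 1, 3 in library 2, 13 in library 3 and 6 in library 4. Of the 27 type I induced genes, 21, 4, 22 and 11 did so in libraries 1 to 4.

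As a summary per library, log2(value + 1) was averaged over the genes of each class. The GTPase mean was 1.85, 2.08, 1.8 and 1.68 in the control libraries and 3.60, 1.59, 2.91 and 1.92 in the Osr2KI-Cre;Ezh2fl/fl libraries. Libraries 1 and 3 lay above the control range, library 2 lay below it and library 4 lay inside it. The group means were 1.85 ± 0.17 and 2.5 ± 0.92 (SD, n = 4), a difference of 0.65 on the log2 scale, smaller than the spread among the Osr2KI-Cre;Ezh2fl/fl libraries. The type I mean was 2.63, 2.74, 2.63 and 2.61 in the control and 3.14, 2.54, 2.99 and 2.75 in the Osr2KI-Cre;Ezh2fl/fl libraries, so that libraries 1, 3 and 4 were above the controls and library 2 was below them. Its group means were 2.65 ± 0.061 and 2.85 ± 0.26 (SD, n = 4), a difference of 0.20. Without Osr2KI-Cre;Ezh2fl/fl library 1 the differences were 0.29 for the GTPases and 0.11 for the type I induced genes. The type I difference was 0.31 without library 2. With a pseudocount of 5 they were 0.40 and 0.12.

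**Figure D3:**
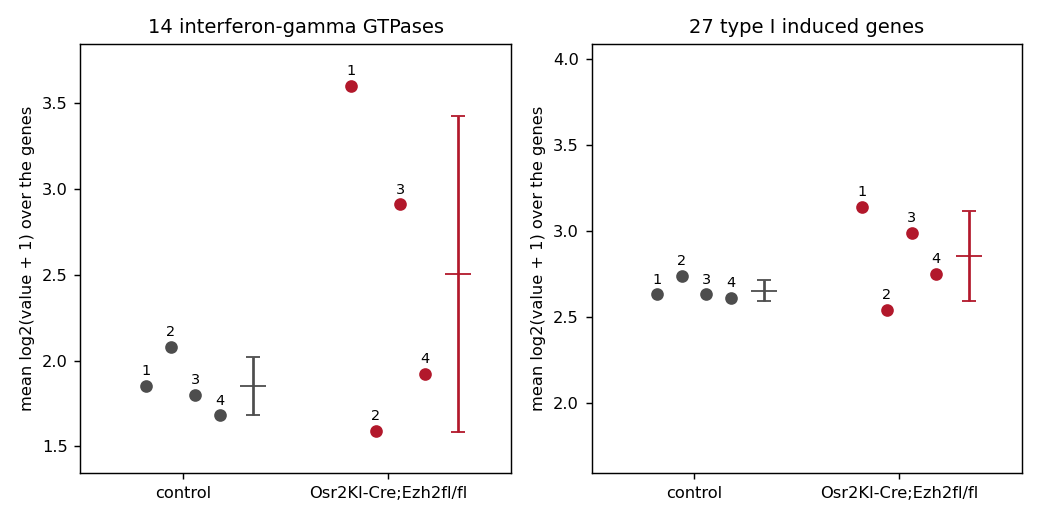
Mean log2(value + 1) over the 14 interferon-gamma GTPases (left) and the 27 type I induced genes (right) in each library, with library numbers beside the points and bars giving the group mean and SD (n = 4). Both vertical axes span the same number of log2 units. Osr2KI-Cre;Ezh2fl/fl libraries 1 and 3 stood at 3.60 and 2.91 for the GTPases, above the control range of 1.68 to 2.08, and library 2 at 1.59 was below it.

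The spread between libraries was itself larger in the Osr2KI-Cre;Ezh2fl/fl group. The SD exceeded that of the control group in 42 of the 43 genes (97.7%), where it did in 71.1% of all genes. The median coefficient of variation of the GTPases was 25.1% in the control and 76.7% in the Osr2KI-Cre;Ezh2fl/fl group. For type I induced genes it was 12.6% and 27.3%, and for all genes 12.2% and 17.1%.

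Of the 43 genes, 36 reached a value of 1 or more in 4 or more libraries and entered the limma fit of 14854 genes, and Cxcl10, Gbp10, Gbp4, Gbp6, Mx1, Oasl1 and Rsad2 did not pass this filter. None of the 36 had a Benjamini-Hochberg adjusted p under 0.05 in limma, where 1.56% of all genes were called higher and 0.512% lower. At an unadjusted p under 0.05 limma gave 6 of the 36 as higher and 0 as lower, beside 8.27% and 4.87% of all genes. The log2 fold change was above 0 in 33 and below 0 in 3 of the 36. Its median was 0.29 over the 36 genes, 0.56 over the 11 GTPases fitted, 0.23 over the 24 type I induced genes fitted and 0.01 over all genes. All 4 Osr2KI-Cre;Ezh2fl/fl libraries were above all 4 controls in 6 of the 43 genes (Tgtp2, Igtp, Oasl2, Ddx58, Gbp10 and Cxcl10) and below them in 0, where 5.55% and 2.65% of all genes were. For Gbp10 this order rests on 3 and 2 estimated reads in libraries 2 and 4, which the depth cannot tell from the 0 to 1 read of the controls. For Cxcl10 it rests on 18 estimated reads in each of libraries 2 and 3 against 15 in control library 2, which counting error does not separate. Leaving out Osr2KI-Cre;Ezh2fl/fl library 1 changed the log2 fold change by over 1.5 times in 28 of the 35 genes fitted without it, and leaving out library 2 did so in 17 of 36, library 3 in 11 of 35 and library 4 in 8 of 35.

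The IRG GTPases, which disrupt the vacuoles of intracellular parasites and bacteria, held the 5 highest log2 fold changes. Tgtp2 stood at 2.64, 2.60, 1.70 and 1.61 in the control and 25.2, 2.66, 7.04 and 3.21 in the Osr2KI-Cre;Ezh2fl/fl libraries. Its highest control value, 2.64, and the value of 2.66 in library 2 were nearly the same, and library 1 alone was 11.8-fold over the control mean. Its log2 fold change was 1.28 ± 0.53 (SE), and 0.68 without library 1. Its near copy Tgtp1 stood at 0.261, 1.66, 1.28 and 1.02 against 16.8, 0.297, 7.66 and 0.509, with a log2 fold change of 1.07 ± 0.77 (SE), or 0.37 without library 1 and 1.63 without library 2. For Tgtp1, libraries 1 and 3 were above the controls and libraries 2 and 4 were inside the control range. Reads of 75 bases cannot always be assigned between the 2 genes, since 74.6% of the 75-base stretches of Tgtp1 transcripts and 81.4% of those of Tgtp2 also occur in the other gene. Their separate values are therefore uncertain.

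Iigp1, an IRG GTPase of the effector type, shared no such stretch with another gene. It stood at 2.38, 4.17, 2.70 and 2.31 in the control and 25.9, 1.14, 12.3 and 2.30 in the Osr2KI-Cre;Ezh2fl/fl libraries. Libraries 1 and 3 were 8.97-fold and 4.27-fold over the control mean, and libraries 2 and 4 were below every control. The means were 2.89 ± 0.871 and 10.4 ± 11.5 (SD, n = 4) and the log2 fold change was 0.89 ± 0.69 (SE), or 0.25 without library 1. Irgm1, which regulates the other IRG proteins, shared no stretch either and stood at 9.64, 10.4, 8.65 and 7.89 against 30.0, 9.62, 19.8 and 11.1. In Irgm1 library 2 was inside the control range and the other 3 libraries were above it, with a log2 fold change of 0.75 ± 0.30 (SE), or 0.46 without library 1. Igtp, a regulator of the same family, stood at 4.09, 4.11, 3.92 and 3.82 against 14.6, 4.56, 8.92 and 4.75. The control values of Igtp spanned little, all 4 Osr2KI-Cre;Ezh2fl/fl values lay above them, and the log2 fold change was 0.75 ± 0.29 (SE), or 0.45 without library 1. Irgm2, the remaining IRG gene, overlaps Igtp on the same strand and had a log2 fold change of 0.56 ± 0.29 (SE).

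The IRG genes apart from Iigp1 lie on chromosome 11. Irgm1 (chr11:48861968-48871683), Tgtp1 (chr11:48985327-48994172) and Tgtp2 (chr11:49057194-49064206) form a group on the minus strand, and Igtp (chr11:58199556-58207591) and Irgm2 (chr11:58199618-58222782) lie together on the plus strand. GBP genes lie in a cluster on chromosome 3 (Gbp2, Gbp3, Gbp5 and Gbp7) and another on chromosome 5 (Gbp4, Gbp6, Gbp9 and Gbp10). Members of all 4 groups were high in the same libraries.

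The GBP genes encode large GTPases that coat and break open microbial vacuoles. Gbp7 had the highest values of them, not corrected for length, at 10.4, 9.92, 7.24 and 6.18 in the control and 17.1, 7.34, 13.7 and 10.6 in the Osr2KI-Cre;Ezh2fl/fl libraries. Gbp3 had the next highest mean over the 8 libraries, at 5.59, 7.39, 4.01 and 3.88 against 11.6, 3.09, 6.99 and 6.81. For both genes library 1 was highest, and library 2 was inside the control range for Gbp7 and below it for Gbp3. Their log2 fold changes were 0.45 ± 0.24 and 0.31 ± 0.31 (SE). Without library 1 they were 0.28 and 0.07. Gbp2, described because its values were seen to split, stood at 3.41, 6.10, 4.13 and 3.75 against 15.3, 1.71, 7.72 and 2.97. Libraries 1 and 3 of Gbp2 lay above the controls and libraries 2 and 4 below them.

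Gbp4 did not pass the filter and was also chosen after its values were seen, at 0.916, 1.09, 0.663 and 0.839 against 9.21, 0.520, 5.37 and 0.551. Its values corresponded to 38 to 80 estimated reads in the control libraries and to 485, 33, 379 and 42 in the Osr2KI-Cre;Ezh2fl/fl libraries. In it, too, libraries 1 and 3 were above and libraries 2 and 4 below every control. Gbp5 and Gbp9 had log2 fold changes of 0.47 ± 0.30 and 0.30 ± 0.30 (SE), and Gbp2 of 0.25 ± 0.48, which turned to -0.21 without library 1. Gbp10 had 0, 1, 0 and 0 estimated reads in the control and 23, 3, 14 and 2 in the Osr2KI-Cre;Ezh2fl/fl libraries, so no fold is given. Gbp6 and Gbp10 shared 67.3% and 77.8% of their 75-base stretches with other genes, mostly with the gene model Gm43302, and are uncertain. Gbp4 and Gbp9 overlap on the same strand.

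**Figure D4:**
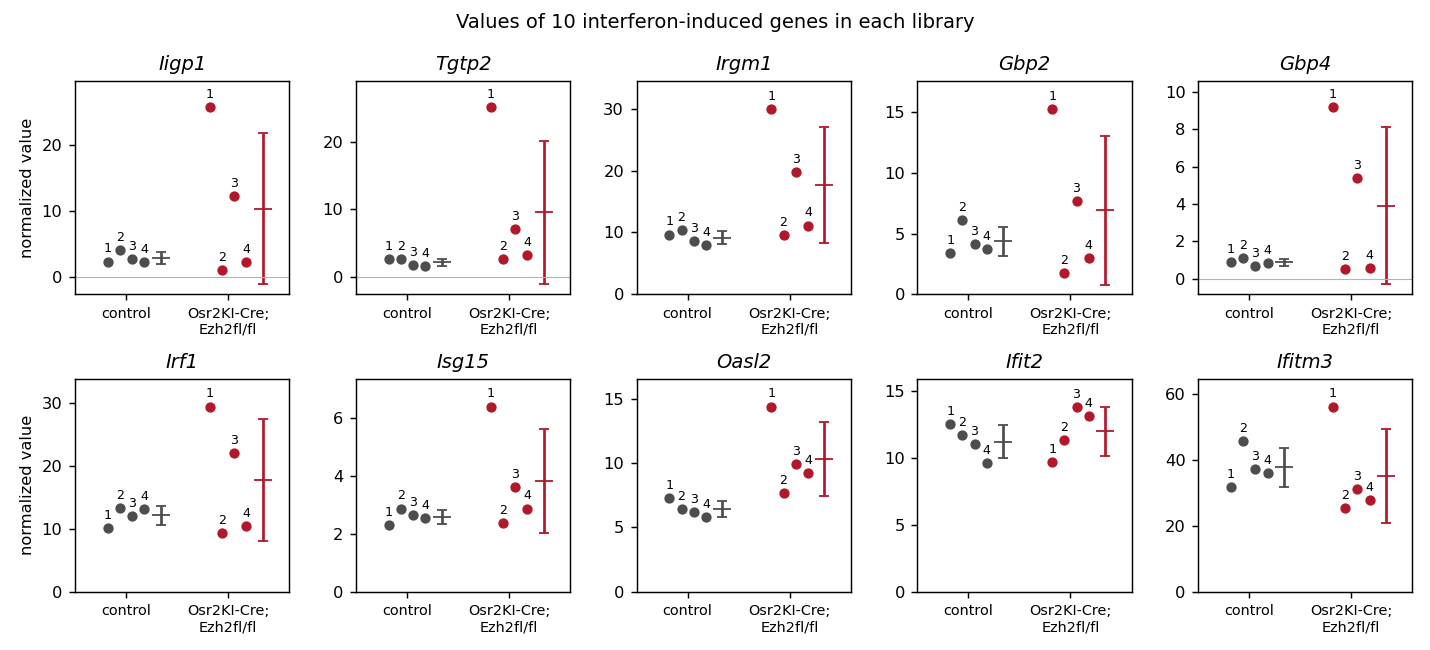
Normalized values of 10 of the genes in each library, with library numbers beside the points and bars giving the group mean and SD (n = 4). The genes span both classes and were picked to show the range of patterns. Iigp1, Tgtp2, Irgm1, Gbp2, Gbp4 and Irf1 were highest in Osr2KI-Cre;Ezh2fl/fl library 1 and next in library 3, Oasl2 was above the controls in all 4 libraries, and Ifit2 and Ifitm3 overlapped the controls.

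Irf1 and Cxcl10, which both kinds of interferon induce, differed from each other. Irf1 stood at 10.1, 13.4, 12.1 and 13.2 in the control and 29.5, 9.31, 22.1 and 10.4 in the Osr2KI-Cre;Ezh2fl/fl libraries, with libraries 1 and 3 high and libraries 2 and 4 below or inside the control range. Its log2 fold change was 0.37 ± 0.32 (SE), or 0.09 without library 1 and 0.61 without library 2. Cxcl10 stood at 0.122, 0.215, 0.172 and 0.199 against 0.853, 0.288, 0.269 and 0.684, which is 6 to 15 estimated reads in the control and 44, 18, 18 and 52 in the Osr2KI-Cre;Ezh2fl/fl libraries. All 4 values of Cxcl10 lay above the controls, and libraries 1 and 4, not 1 and 3, were the high pair.

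Among the type I induced genes, Oasl2, an OAS-like protein that limits virus replication, had the highest log2 fold change. It stood at 7.31, 6.41, 6.21 and 5.83 in the control and 14.4, 7.66, 9.90 and 9.24 in the Osr2KI-Cre;Ezh2fl/fl libraries. All 4 Osr2KI-Cre;Ezh2fl/fl values lay above the controls, and the log2 fold change was 0.57 ± 0.16 (SE). Bst2, or tetherin, which holds budding virus at the cell surface, stood at 8.27, 9.64, 9.34 and 9.24 against 25.8, 8.52, 12.4 and 9.69. Here library 1 was 2.83-fold over the control mean while libraries 2 and 4 were at 0.934-fold and 1.06-fold of it, and the log2 fold change was 0.45 ± 0.28 (SE), or 0.13 without library 1.

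Mx2 and Isg20 differed little between the groups. Mx2, of the dynamin-like GTPase family, is annotated as a polymorphic pseudogene. It stood at 1.37, 1.23, 1.46 and 1.67 in the control and 1.72, 0.815, 2.07 and 1.43 in the Osr2KI-Cre;Ezh2fl/fl libraries. The log2 fold change of Mx2 was 0.02 ± 0.16 (SE). Isg20, an RNA exonuclease, stood at 0.869, 1.49, 1.10 and 1.53 against 1.33, 0.955, 1.43 and 0.645, with a log2 fold change of -0.11 ± 0.15 (SE). Both genes overlapped between the groups, and neither lay above every control in more than libraries 1 and 3. Oas2, an RNase L activator, was between 1.5 and 1.84 in the Osr2KI-Cre;Ezh2fl/fl libraries and between 0.596 and 1.70 in the control libraries. It was the only one of the 43 genes whose SD was smaller in the Osr2KI-Cre;Ezh2fl/fl group, at 0.152 against 0.456 (n = 4). Its log2 fold change was 0.28 ± 0.15 (SE). Mx1, Oasl1 and Rsad2 did not pass the filter, with values of 0.266 to 1.57 over all libraries and ratios of the group means of 1.09, 1.48 and 1.29.

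The ubiquitin-like modifier ISG15 and its protease USP18 differed in which libraries were high. Isg15 stood at 2.31, 2.88, 2.65 and 2.55 in the control and 6.41, 2.38, 3.61 and 2.88 in the Osr2KI-Cre;Ezh2fl/fl libraries. Usp18 stood at 1.78, 1.74, 1.43 and 1.72 against 2.92, 1.66, 2.62 and 3.36. Library 1 was highest for Isg15 and library 4 for Usp18, and library 2 lay inside the control range for both. The log2 fold changes were 0.36 ± 0.21 for Isg15 and 0.43 ± 0.15 for Usp18 (SE), and that of Isg15 was 0.13 without library 1.

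The IFIT genes encode proteins that bind foreign RNA. Ifit2 stood at 12.5, 11.7, 11 and 9.60 in the control and 9.67, 11.3, 13.8 and 13.1 in the Osr2KI-Cre;Ezh2fl/fl libraries. It differed from most of the 43 genes in that library 1 was the lowest of its 4, inside the control range, and its log2 fold change was 0.08 ± 0.12 (SE). Ifit3 stood at 1.89, 3.33, 2.89 and 2.11 against 4.64, 1.84, 4.77 and 3.34, high in libraries 1 and 3, with a log2 fold change of 0.35 ± 0.23 (SE). It shared 41.1% of its 75-base stretches with Ifit3b and is uncertain to that extent. Ifit1 had a log2 fold change of 0.23 ± 0.14 (SE).

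The IFITM genes, whose proteins block virus entry at membranes, were the most abundant per length and showed no common direction. Per kilobase of exon, the control mean was 236 for Ifitm2, 55.6 for Ifitm3 and 45.8 for Ifitm1, followed by 10.1 for Bst2. The IRG and GBP genes lay between 0.117 for Gbp4 and 1.97 for Igtp on the same scale, leaving out Gbp10, which had too few reads. Ifitm2 stood at 139, 172, 152 and 157 in the control and 211, 166, 165 and 158 in the Osr2KI-Cre;Ezh2fl/fl libraries. Ifitm3 stood at 31.8, 45.6, 37.3 and 36.1 against 56.2, 25.3, 31.2 and 27.9, so that library 1 was above every control and the other 3 libraries were below every control. Ifitm1 stood at 44.7, 59.3, 47.7 and 48.8 against 55.0, 43.3, 55.4 and 37.5. The log2 fold changes were 0.17 ± 0.10 for Ifitm2, -0.16 ± 0.22 for Ifitm3 and -0.08 ± 0.14 for Ifitm1 (SE), and that of Ifitm3 was -0.40 without library 1. Ifitm2 shared 42% of its 75-base stretches with other genes, mostly the overlapping gene model Gm45717.

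The cytosolic RNA sensors recognise viral RNA and start interferon production. Ddx58 (RIG-I) stood at 11.1, 10, 10.1 and 10.3 in the control and 12.4, 11.4, 13.6 and 12.7 in the Osr2KI-Cre;Ezh2fl/fl libraries. All 4 Osr2KI-Cre;Ezh2fl/fl libraries were above the controls, by a small and even amount, with a log2 fold change of 0.25 ± 0.08 (SE). Ifih1 (MDA5) stood at 4.19, 4.30, 3.27 and 4.51 against 5.48, 3.66, 5.25 and 4.16, high in libraries 1 and 3 only, with a log2 fold change of 0.15 ± 0.14 (SE). Dhx58 (LGP2), which modulates both sensors, had a log2 fold change of 0.20 ± 0.13 (SE).

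Of the factors that carry the type I signal, Stat2 stood at 20.3, 15.8, 16.1 and 14.4 in the control and 21.4, 16.3, 23.2 and 18.5 in the Osr2KI-Cre;Ezh2fl/fl libraries. Irf9, its DNA-binding partner, stood at 17.2, 15.4, 13.3 and 15.2 against 26.2, 14.3, 22.3 and 17.8. Both were above every control in libraries 1 and 3, with log2 fold changes of 0.24 ± 0.13 and 0.35 ± 0.17 (SE). Irf7, which drives type I interferon transcription, had a log2 fold change of 0.19 ± 0.17 (SE) and was above every control in libraries 1, 3 and 4.

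Of the 5 remaining type I induced genes, whose functions are less settled, Ifi27 stood at 10.1, 12.9, 11.8 and 11.6 in the control and 17.9, 9.75, 16.4 and 13.3 in the Osr2KI-Cre;Ezh2fl/fl libraries. Ifi35 stood at 7.73, 9.02, 7.92 and 8.55 against 13.8, 7.98, 10.1 and 8.40. Ifi44 stood at 1.95, 1.85, 1.87 and 1.85 against 3.20, 1.38, 2.12 and 1.64. All 3 were above every control in libraries 1 and 3, and Ifi44 was below every control in libraries 2 and 4. The log2 fold changes were 0.25 ± 0.17, 0.22 ± 0.15 and 0.07 ± 0.16 (SE). Rtp4 and Xaf1, with log2 fold changes of 0.33 ± 0.24 and 0.14 ± 0.18 (SE), were also above every control in libraries 1 and 3.

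A list of 82 other interferon pathway genes was drawn up by role, of which 33 are other induced genes and the rest ligands, receptors, kinases, sensors and regulators. Of these, 59 were in the table and 48 entered the fit, and limma called 0 of the 48 at an adjusted p under 0.05. Over all genes, 1.56% were called higher and 0.512% lower. At an unadjusted p under 0.05, limma gave 8 as higher and 0 as lower, beside 8.27% and 4.87% of all genes. The median log2 fold change was 0.10 over the 48 and 0.01 over all genes. The 21 interferon genes of the list were not analysed here. Among the receptors, Ifngr1, the ligand-binding chain for interferon-gamma, stood at 87.4, 87.8, 79.6 and 72.6 in the control and 93.9, 116, 119 and 130 in the Osr2KI-Cre;Ezh2fl/fl libraries. All 4 Osr2KI-Cre;Ezh2fl/fl values were above the controls, library 1 being the lowest of them, and the log2 fold change was 0.48 ± 0.11 (SE, limma adjusted p = 0.0588). Without library 1 it passed the threshold. Ifnar1, a chain of the type I receptor, stood at 99.4, 92.3, 92.2 and 80.3 against 82.9, 97.4, 81.2 and 103, with a log2 fold change of 0.00 ± 0.10 (limma adjusted p = 0.998).

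Jak1, the kinase that both pathways use, and Jak2, the partner kinase for interferon-gamma, overlapped between the groups. Jak1 was between 166 and 171 in the control and between 151 and 190 in the Osr2KI-Cre;Ezh2fl/fl libraries (log2 fold change -0.04 ± 0.08, limma adjusted p = 0.916), and Jak2 was between 88.6 and 107 and between 93.4 and 111 (0.05 ± 0.08, adjusted p = 0.886).

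In nucleic acid sensing, Trim25 and Irf3, with the highest values of that role before any correction for length, had log2 fold changes of 0.14 ± 0.07 and 0.03 ± 0.09 (limma adjusted p = 0.412 and 0.951). Ikbke, a kinase of the sensing pathway, and Mb21d1 (cGAS), the DNA sensor, were added after their values were seen, with log2 fold changes of 0.39 ± 0.10 and 0.43 ± 0.12 (limma adjusted p = 0.105 and 0.121). In both, all 4 Osr2KI-Cre;Ezh2fl/fl libraries were above all 4 controls and library 1 was the lowest of the 4. Among the negative regulators, Pias1 had -0.07 ± 0.07 and Ptpn2, a phosphatase of the JAK kinases, had 0.13 ± 0.06 (limma adjusted p = 0.817 and 0.374). Of the other induced genes, Pnpt1 and Adar, with the highest values on that same scale, had 0.06 ± 0.07 and 0.01 ± 0.09 (limma adjusted p = 0.825 and 0.991). The next 3 genes were picked after their values were seen. Uba7, the activating enzyme for ISG15, stood at 4.99, 5.66, 5.03 and 4.72 in the control and 11.4, 5.75, 10.1 and 6.30 in the Osr2KI-Cre;Ezh2fl/fl libraries (log2 fold change 0.57 ± 0.19, limma adjusted p = 0.211). Ciita, the master regulator of MHC class II genes and an interferon-gamma target, stood at 0.139, 0.148, 0.138 and 0.168 against 0.720, 0.0758, 0.410 and 0.103. It did not pass the filter, with 7 to 10 estimated reads in the control and 37, 4, 28 and 7 in the Osr2KI-Cre;Ezh2fl/fl libraries. Ifi47, another IRG gene, stood at 1.73, 3.51, 2.82 and 2.64 against 8.64, 1.73, 5.40 and 2.12 (limma adjusted p = 0.768). Libraries 1 and 3 were the highest in these 3 genes, which were chosen for it. They were the highest pair in 18 of the 31 other induced genes in the table (58.1%, against 28.2% of all genes). Library 1 was the lowest of the 4 in 3 of the 31 (Eif2ak2, Helz2 and Gbp2b). For Gbp2b this rests on 0, 2 and 1 estimated reads in libraries 1 to 3, which the depth cannot tell apart.

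**Figure D5:**
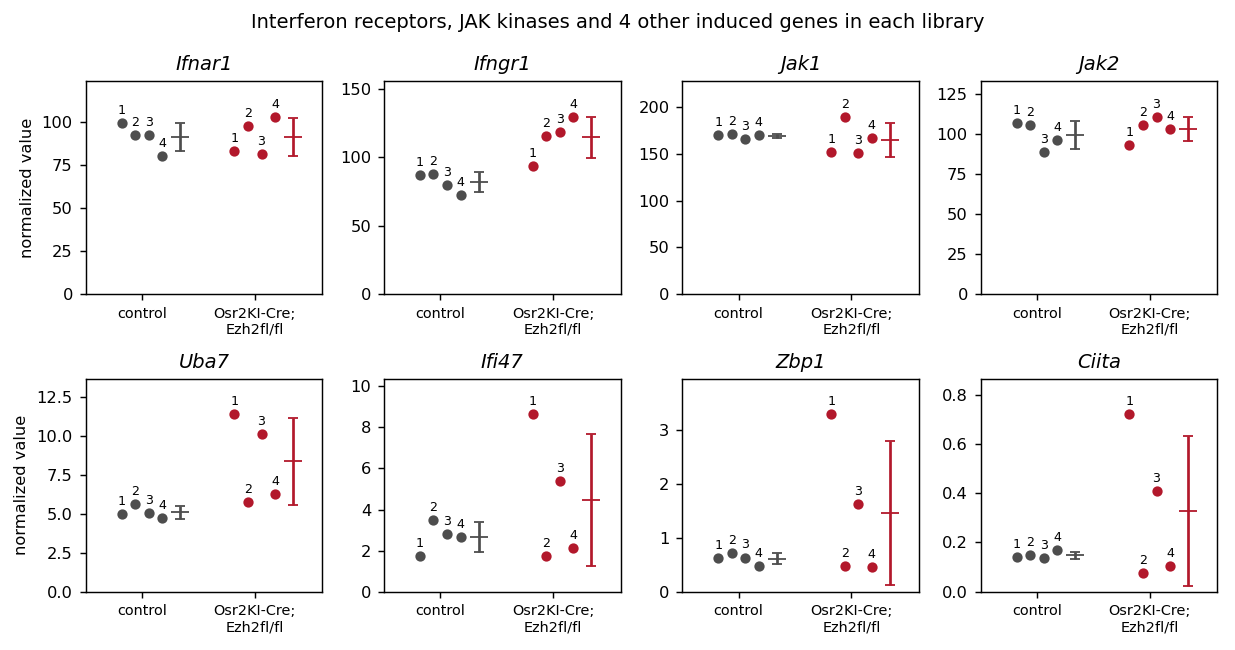
Normalized values of 8 other interferon pathway genes in each library, with library numbers beside the points and bars giving the group mean and SD (n = 4). Ifnar1, Jak1 and Jak2 overlapped between the groups, and Ifngr1 was above the controls in all 4 Osr2KI-Cre;Ezh2fl/fl libraries with library 1 lowest. Uba7, Ifi47, Zbp1 and Ciita, picked after their values were seen, were highest in libraries 1 and 3. Zbp1 and Ciita did not pass the filter.

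Markers of other cells were set beside the library pattern. The 12 macrophage markers summed to 216 to 322 in the control and to 362, 329, 298 and 308 in the Osr2KI-Cre;Ezh2fl/fl libraries. Of the 12, limma called 0 in either direction (1 higher and 0 lower at an unadjusted p under 0.05). Over all genes, 1.56% were called higher and 0.512% lower, and 8.27% and 4.87% at the unadjusted threshold. The median log2 fold change was 0.29 over the macrophage markers, 0.29 over the 36 interferon-induced genes fitted and 0.01 over all genes. Library 1 had the highest sum, and 8 of 12 markers lay above every control there, among them the complement genes C1qa, C1qb and C1qc and the lysozyme gene Lyz2. Csf1r, Ptprc, Cd68 and Mrc1 were inside the control range in library 1, and Mrc1 and Adgre1 were highest in library 2, at 87.3 and 15.7. In libraries 2, 3 and 4, 5, 4 and 3 of the 12 markers lay above every control, and the shares of all genes that did so in libraries 1 to 4 were 32.2%, 29.1%, 35.6% and 26.1%. The sum of library 3 was inside the control range. Of 10 lymphocyte and natural killer markers 4 were in the table, with sums of 1.53 to 2.08 in the control and 1.38, 1.49, 2.42 and 1.33 in the Osr2KI-Cre;Ezh2fl/fl libraries. The plasmacytoid dendritic cell marker Siglech was between 0.133 and 0.378 in all 8 libraries. The 7 endothelial markers summed to 387 to 441 in the control and to 345 to 376 in the Osr2KI-Cre;Ezh2fl/fl libraries. The 7 dental epithelium markers summed to 2220 to 31800 in the control libraries and to 3290, 2300, 13300 and 2200 in the Osr2KI-Cre;Ezh2fl/fl libraries. Of the 7, the enamel matrix genes Amelx, Ambn and Enam varied most between libraries. Amelx ran from 316 to 16300 and Krt5 from 827 to 1990. The enamel matrix genes, Krt14 (637 against 542) and Cdh1 (293 against 241) were higher in library 3 than in library 1. Epcam (66.1 against 95.9) and Krt5 (1040 against 1130) were lower. Red cell markers summed to 302, 433, 694 and 365 in the Osr2KI-Cre;Ezh2fl/fl libraries and to 255 to 450 in the controls.

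Libraries 1 and 3 also differed from each other in the sex-specific transcripts, with Xist at 0.414 and 2650 and Ddx3y at 73.0 and 0.0424. Their estimated depths were 48.3 and 64.1 M reads. The part of macrophages, other cell types, sex and depth in the library pattern was not tested.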

How the data were processed

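Tissue described as mesenchyme of postnatal day 3 molars was sequenced in 4 Ezh2fl/fl (control) and 4 Osr2KI-Cre;Ezh2fl/fl libraries, grouped by the labels. The authors deposited a signal, a normalized value per gene and library, and 0 other columns of per-sample values. The paper's methods describe single-end reads of 75 cycles, TopHat 2.0.8 and RPKM, while the submitters' processing notes name STAR 2.5.3a, Partek, CASAVA 1.8.2 and mm10. The deposited values carry no length factor and their upper quartile was 38.45 to 38.46 in every library. Only 61.2% of the low values (under 20 times the smallest value of a library) were whole multiples of that smallest value, within 0.01, so no count test was run. Reads were estimated as the value over the smallest value of its library, minus 1, which covers counting error only. Whether counting used strand is not given in the sources used here. The methods state a sequencing of 3 pairs of samples as well as n = 4 per group, and all 8 libraries were used.

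The 14854 genes that reached a value of 1 or more in 4 or more libraries were fitted as log2(value + 1) with limma 3.58.1 in R 4.3.3 (lmFit, eBayes with trend, no covariate), adjusted by Benjamini-Hochberg over all of them. Fold changes are on that scale and understate low genes. The fit was tested on simulated data. The members, classes and lists were chosen with earlier results of these data known. Among the 43 genes, values in every library are given for the 2 highest of each role, the 5 largest and 5 smallest log2 fold changes, and Tgtp1, Tgtp2 and Ifit3. Of the other pathway genes the 2 highest of each role are named, some by log2 fold change or range only. Gbp2, Gbp4, Gbp10, Oas2 (as a range), Uba7, Ciita, Ifi47, Zbp1, Ikbke, Mb21d1, Eif2ak2, Helz2 and Gbp2b were added after their values were seen. Positions come from GENCODE vM21 (GRCm38, the same build as mm10), and 42 of 43 starts equal those of the table. Motifs were searched with Python 3.11.15. Stretches of 75 bases were compared with all GENCODE transcripts. Alternatives were pseudocounts of 0.1 and 5, other scalings, no filter or a filter at 10, no trend, robust moderation, a replicate block and each library left out. The values of 1 pathway gene are not reported here.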

Additional observations from a re-analysis of the deposited data

Results flagged for a closer look

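Among 102 gene and group combinations examined, 5 had 1 library set apart from its group by Dixon's criterion, about the 5.1 that chance gives. Ifit1 was 1.97 in Osr2KI-Cre;Ezh2fl/fl library 2, where the other 3 libraries were at 3.00 to 3.16. Usp18 was 1.43 in control library 3 and 1.72 to 1.78 in the remaining controls. For Rsad2, control library 2 stood at 1.38 and the remaining controls at 0.695 to 0.791. In the same library the mean log2(value + 1) of the 27 type I induced genes was 2.74, and it was 2.61 to 2.63 in the rest. Ezh2 was 55.0 in control library 1 and 38.3 to 39.6 elsewhere in that group.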

How the results depend on the processing

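The count of interferon-induced genes with an adjusted p under 0.05 in limma was 0 in both directions under every alternative tried. Over these alternatives, 0.431% to 1.98% of all genes fitted were called higher and 0.0606% to 0.624% lower. The number at an unadjusted p under 0.05 and higher, 6 of 36, was 9 of 43 without a filter (7.96% of all genes fitted) and 2 of 11 with a filter at 10 (6.54%). With 1 library left out it ran from 2 of 36 (without control library 3, 5.49%) to 20 of 36 (without Osr2KI-Cre;Ezh2fl/fl library 2, 7.58%). Among the other pathway genes the higher count ran from 0 to 1 over the fits that left out 1 library, the 1 being Ifngr1 without Osr2KI-Cre;Ezh2fl/fl library 1, and the lower count stayed 0. The cause was not tested. With 1 library left out, the GTPase difference ran from 0.29 to 0.96 and the type I difference from 0.11 to 0.31. Of 583 values of the 36 fitted genes under alternatives, 1 moved by more than the spread between replicates (Usp18, 0.19 at a pseudocount of 5). That spread includes the split among the Osr2KI-Cre;Ezh2fl/fl libraries, so the count says little about stability. For Iigp1 the spread was 1.23, and its change from 0.89 to 0.25 without library 1 stayed within it. Of the 583 values, 7 had the opposite sign, in Ifi44, Ifitm1, Mx2 and Gbp2 (-0.21 without Osr2KI-Cre;Ezh2fl/fl library 1). Another 3 were 0 to 2 decimals, in Ifitm1, Isg20 and Xaf1. The ISRE share was 54.8% before the start only (3.46% of all genes; type I induced genes 35%) and 67.7% with the looser core GAAANNGAA (9.76% of all genes). The GAS share was 32.3% before the start only (8.13% of all genes; type I induced genes 15%).

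Both groups use the replicate numbers 1 to 4 in their labels, but same-numbered libraries did not deviate together (correlations of deviations -0.34, -0.077, 0.22 and -0.43), so they were not treated as pairs. With the replicate block, 0 interferon-induced genes were called in either direction, and 0 other pathway genes. Few genes were called at all in that fit, 0.431% of all genes higher and 0.0606% lower. Among the interferon-induced genes, depth limits Gbp10 and Cxcl10 most. Ciita and Gbp2b, among the other pathway genes, also had few estimated reads in most libraries.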
